A study of Mus musculus with 6 samples.

Results

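The 5 genes described here, Dynll1, Zmym1, Tnfaip6, Pgap1 and R3hdm1, are 5 of the 18560 genes in the count table. They were chosen from measured values: each had come out higher in the trained than in the control libraries in one or both of the granule cell clusters n03-GC-1 and n07-GC-2. Their levels in those clusters are therefore given as a description, without a test, and the question asked is whether the difference was limited to those clusters. The other clusters hold other cells of the same 6 libraries, so they do not repeat the comparison in other mice. Single cells were taken from olfactory bulbs of C57BL/6NJ mice, 14 weeks old, and sequenced by a droplet method that counts unique molecular identifiers (UMIs), each standing for 1 captured transcript. Trained mice were water-deprived and learned to tell a rewarded odor from an unrewarded odor, occluded mice had a plug in 1 naris, and both manipulations lasted 6 weeks. Control samples carry the label of no manipulation and the study's account of the sequencing calls them naive, although its text on the occlusion also names the open side of the occluded mice as a control. Water deprivation is described for the trained mice only, so water restriction and odor learning cannot be told apart in the trained group. Each group had 2 libraries, each pooled from 3 mice, and by its counts the replicate number marks the sex of the pool, male in replicate 1 and female in replicate 2: Xist, the transcript of the inactive X chromosome, had 0 to 5 UMIs in the replicate 1 libraries and 20000 to 27904 UMIs in the replicate 2 libraries.

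The table held 52549 barcodes, of which 51426 carried a cluster name from the authors, with 18 neuronal clusters for 21746 neurons and 22 nonneuronal clusters. Libraries held 6705 to 10570 annotated cells with 11841160 to 17065083 UMIs in all. The median cell had 1028 to 1724 UMIs and a mitochondrial share of 9.25% to 14.4%, and trained replicate 1 had the lowest median UMIs and the highest mitochondrial share. In all, 1533 barcode sequences occurred in more than 1 library. The name prefixes of the trained cells ran against the library column of the annotation, which was used here; both names belong to the trained group. Cluster names are those of the deposited annotation, and by cell numbers several nonneuronal clusters have another number in the study's own table of cells: OEC4, MicroG2 and Astro2 here match the clusters named OEC3, MicroG1 and Astro3 there. Clusters carried the markers of their names where these were checked: the interneuron genes Gad1, Gad2, Slc32a1 and Meis2 together stood at 1585 to 1991 CPM (UMIs of a gene scaled to the same total UMIs in every sum of cells) in n03-GC-1 and 2991 to 3394 CPM in n07-GC-2 but at 167 to 335 CPM in microglia cluster MicroG2, and the oligodendrocyte list was highest in MyOligo.

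Granule cells are inhibitory interneurons without an axon that are added to the olfactory bulb throughout adult life, and odor experience is known to influence which of the new cells survive and how they connect. The 5 genes have unrelated roles. Dynll1 encodes LC8, a small dimeric light chain of cytoplasmic dynein that also binds many partners outside the motor. Zmym1 encodes a zinc finger protein of the MYM type. Tnfaip6 encodes TSG-6, a secreted protein that binds hyaluronan and takes part in crosslinking it. Pgap1 encodes the inositol deacylase that remodels glycosylphosphatidylinositol (GPI) anchors in the endoplasmic reticulum. R3hdm1 encodes a protein with an R3H domain, a fold that binds single-stranded nucleic acids, and its gene is the host of the microRNA gene Mir128-1.

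In the clusters that chose them, the 5 genes did not share 1 pattern. In n03-GC-1, Dynll1 stood at 400 and 476 CPM in control replicates 1 and 2, at 380 and 495 CPM in the occluded libraries, and at 900 and 720 CPM in the trained libraries. In n07-GC-2 it stood at 407 and 405 CPM in control, 383 and 458 CPM in occluded and 697 and 541 CPM in trained libraries. Both trained libraries thus lay above the other 4 in both clusters, and the trained mean was 1.85-fold the control mean in n03-GC-1 and 1.53-fold in n07-GC-2. Zmym1 behaved likewise at a lower level: in n03-GC-1 it stood at 26.5 and 25.1 CPM in control, 37.1 and 14.8 CPM in occluded and 84.8 and 50.8 CPM in trained libraries. In n07-GC-2 it stood at 55.7 and 54.0 CPM in control, 54.1 and 96.9 CPM in occluded and 273 and 140 CPM in trained libraries, a ratio of means of 3.76. Trained replicate 1, from male mice, was the higher trained library for both genes in both clusters.

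The other 3 genes also stood higher in both trained libraries of n07-GC-2, but in n03-GC-1 Pgap1 and R3hdm1 overlapped and Tnfaip6 had too few UMIs to compare. Tnfaip6 in n07-GC-2 stood at 53.1 and 41.5 CPM in control, 43.6 and 33.4 CPM in occluded and 121 and 137 CPM in trained libraries. It was nearly absent from n03-GC-1, with 12 UMIs over the 6 libraries, none of them in the control libraries and 1 in each trained library. Pgap1 in n07-GC-2 stood at 92.9 and 95.5 CPM in control, 114 and 124 CPM in occluded and 212 and 180 CPM in trained libraries, whereas in n03-GC-1 trained replicate 2, at 41.5 CPM, fell between the control libraries at 51.1 and 34.4 CPM. R3hdm1 in n07-GC-2 stood at 892 and 894 CPM in control, 851 and 912 CPM in occluded and 1456 and 1522 CPM in trained libraries, whereas in n03-GC-1 its 6 libraries spanned only 149 to 195 CPM and the groups overlapped. Whether the difference was larger in one of these clusters than in the other, or than elsewhere, was not tested, because the genes were chosen on it.

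**Figure D1:**
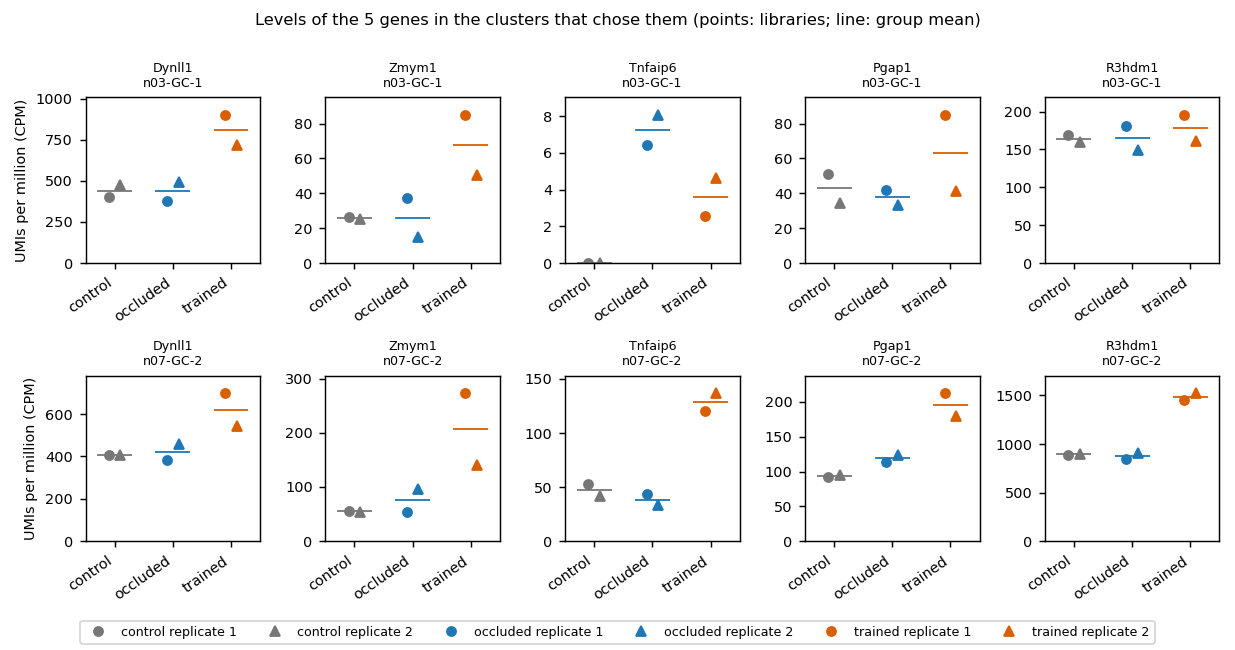
Levels of the 5 genes in n03-GC-1 (top) and n07-GC-2 (bottom) in CPM on linear axes from 0, 1 point per library (circle, replicate 1; triangle, replicate 2) and a line at the mean of each group of 2. All 5 genes have both trained points above both control points in n07-GC-2, while in n03-GC-1 Pgap1 and R3hdm1 overlap and Tnfaip6 stays below 9 CPM.

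For Zmym1 in n07-GC-2 the share of cells with at least 1 UMI was 5.06% and 4.86% in the control libraries and 21.4% and 12.6% in the trained libraries. With every cell thinned to 500 UMIs, which all cells of this cluster had, it was 2.60% and 2.72% against 11.6% and 7.89%. In MicroG3, a microglial cluster of similar depth (median 748 UMIs against 882 UMIs in n07-GC-2), the unthinned share was 0% in 5 libraries and 0.397% in trained replicate 1. For Tnfaip6 in n07-GC-2 the thinned share was 3.01% and 2.14% in control, 1.53% and 0.831% in occluded and 4.90% and 6.38% in trained libraries. Tnfaip6 had 267 UMIs in n07-GC-2, and 5.90% of its 3608 cells held at least 1.

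Dynll1 lies on chromosome 5, from 115297110 to 115300990 in GRCm38.p6 (RefSeq), and is transcribed from the minus strand. The 250 bases upstream of its start (chr5:115300991-115301240) are shown because its trained libraries stood higher in almost every cell type. Capitals in this and the following upstream sequences mark matches on either strand to any of 5 motifs: the cyclic AMP response element TGACGTCA, its core TGACG, which overlaps it, the AP-1 motif TGANTCA, the Egr motif GCGNGGGCG and the GC box GGGCGG.
Dynll1 upstream: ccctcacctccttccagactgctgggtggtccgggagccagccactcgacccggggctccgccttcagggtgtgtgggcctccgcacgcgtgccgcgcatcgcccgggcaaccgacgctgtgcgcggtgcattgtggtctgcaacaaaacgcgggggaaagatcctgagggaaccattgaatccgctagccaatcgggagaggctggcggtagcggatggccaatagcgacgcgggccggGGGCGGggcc
The match is a GC box, which 32.7% of the 32851 upstream windows of the same length hold. Matches are letters in a window and not shown sites.

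Dynll1 was detected in all 40 clusters. Its mean level over the 6 libraries was highest in n11-GC-5 at 1748 ± 378 CPM (SD, n = 6), followed by n12-GC-6 at 1668 ± 270 CPM and the oligodendrocyte precursors (OPC) at 1652 ± 310 CPM, and lowest in red blood cells at 130 ± 67.5 CPM. Neighbours in this order did not separate: the ranges over libraries overlapped for all 39 neighbouring pairs. Of the 40 clusters, 32 were not used to choose the genes and had at least 20 cells in every library, and these 12 neuronal and 20 nonneuronal clusters are called the other clusters below. In 31 of the 32 other clusters both trained libraries lay above both control libraries. In the immature neurons (n04-Immature) Dynll1 stood at 649 and 789 CPM in control, 644 and 690 CPM in occluded and 1322 and 992 CPM in trained libraries. In MicroG2 it stood at 293 and 288 CPM in control, 238 and 253 CPM in occluded and 588 and 384 CPM in trained libraries. In both clusters the trained libraries lay above the other 4. The exception was n12-GC-6, where trained replicate 2 at 1685 CPM lay below control replicate 2 at 1772 CPM.

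Over all genes with at least 12 UMIs in a cluster, both trained libraries lay above both control libraries in 17.3% of the pairs of gene and other cluster and below them in 17.0%. Of the 5103 genes with that many UMIs in at least 90% of the other clusters, only Dynll1 itself was above in 31 or more clusters, or 0.0196% of these genes. Both trained libraries lay above the other 4 libraries in 29 of the 32 other clusters, against 7.53% of all pairs. Trained replicate 2 alone lay above both control libraries in 31 clusters, against 35.1% of all pairs. This follows from the first count and is not a separate check of it. All clusters share the same libraries, so these counts are not 32 separate trials. The ratio of the trained to the control mean ranged from 1.15 to 2.25 with a median of 1.46 over the 12 neuronal clusters, and from 1.18 to 1.75 with a median of 1.42 over the 20 nonneuronal clusters.

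**Figure D2:**
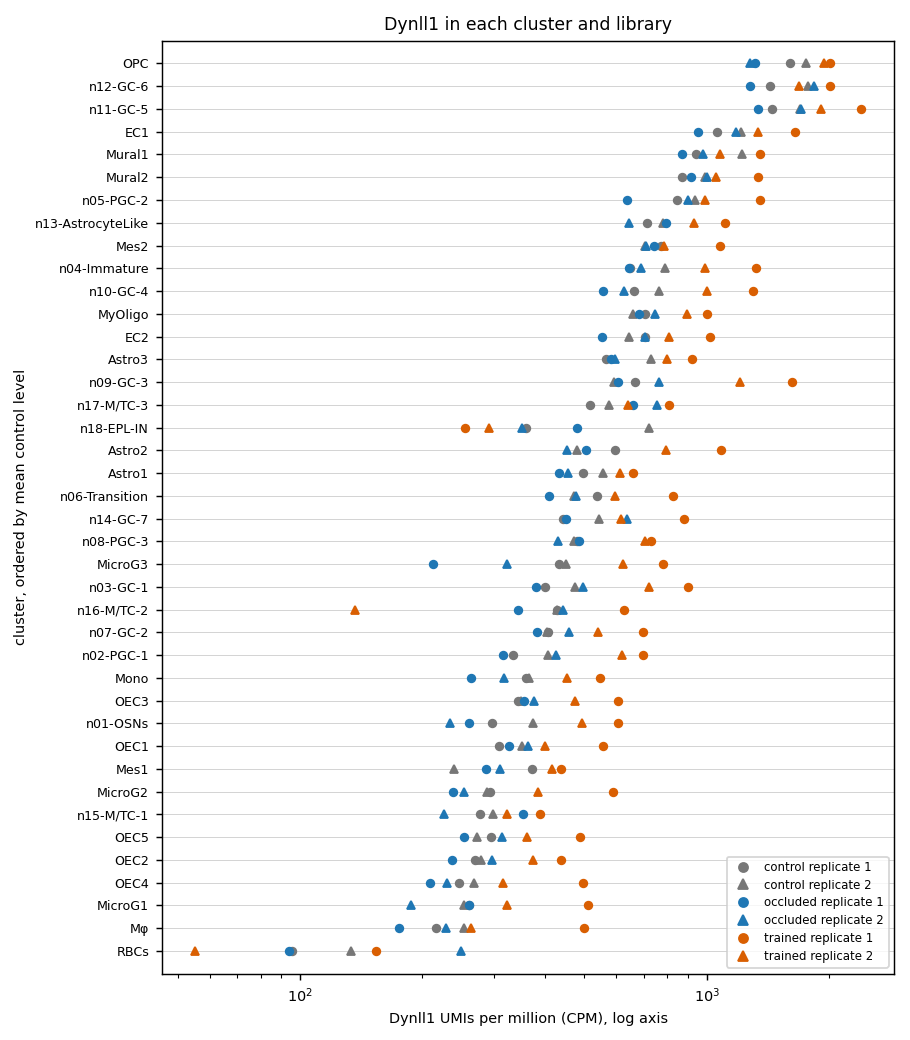
Dynll1 level (CPM, log axis) in each of the 40 clusters, ordered by mean control level, with 1 point per library (circle, replicate 1; triangle, replicate 2; grey control, blue occluded, orange trained). The orange points lie to the right of the grey points in 31 of the 32 other clusters, and trained replicate 1 is usually the rightmost point.

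The RNA makeup of the trained libraries also differed across clusters. The summed level of 4 nuclear RNAs (Malat1, Meg3, Neat1 and Snhg11) was lower in both trained than in both control libraries in 22 of the 32 other clusters and higher in 0; in nonneuronal cells it was 57448 and 60810 CPM in control and 45081 and 49078 CPM in trained libraries. The hemoglobin and heme list of red blood cells was lower in 18 clusters and higher in 0, and 8 early response genes (Fos, Egr1, Junb and others) were together higher in 13 and lower in 2. Marker lists of cell types went either way: that of mitral and tufted cells was lower in 14 clusters, those of endothelial and of olfactory ensheathing cells in 13 each, that of oligodendrocyte precursors in 10 and that of mural cells in 9, while these lists were higher in 1, 5, 2, 4 and 2 clusters. That of immature neurons was higher in 10 clusters and lower in 3, that of astrocytes higher in 9 and lower in 2, that of interneurons higher in 7 and lower in 3, those of microglia and of oligodendrocytes higher in 6 each and lower in 4 and 3, and that of sensory neurons higher in 3 and lower in 3. The count for Dynll1 was 31 of 32 clusters with the nuclear and mitochondrial RNAs taken out of the library totals. The part of any of these lists in the Dynll1 difference was not tested. Fewer cells with a transcript and fewer transcripts in each cell cannot be told apart in summed counts.

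Zmym1 lies on chromosome 4, from 127047094 to 127061176. Its level was highest in mitral and tufted cell cluster n15-M/TC-1 at 219 ± 143 CPM (SD, n = 6), in n06-Transition at 158 ± 124 CPM and in n07-GC-2 at 112 ± 85.7 CPM, and the ranges of all neighbours in the order overlapped. It had 12 or more UMIs in 20 of the 32 other clusters, and both trained libraries lay above both control libraries in 12 of these and below in 0: 6 of 9 neuronal clusters, against 18.0% of all pairs in neuronal clusters, and 6 of 11 nonneuronal clusters, against 16.9%. In 3 of the 12 (n09-GC-3, MicroG2 and Mural2) the control and occluded libraries together held under 12 UMIs, so that these were counted only through the trained libraries, and the other 9 were of 14 clusters with 12 or more UMIs outside the trained libraries. In n06-Transition, one of the young adult-born clusters, it stood at 113 and 66.4 CPM in control, 51.3 and 121 CPM in occluded and 385 and 209 CPM in trained libraries. In n11-GC-5 it stood at 38.6 and 17.2 CPM in control, 29.0 and 31.5 CPM in occluded and 114 and 103 CPM in trained libraries. In both clusters the trained libraries lay above the other 4. Nonneuronal clusters held little Zmym1. In OEC1, with 44 UMIs, it stood at 5.78 and 9.14 CPM in control, 6.63 and 5.91 CPM in occluded and 17.2 and 13.8 CPM in trained libraries, with the trained libraries above the other 4. In MyOligo, with 52 UMIs, the groups overlapped, at 11.6 and 19.1 CPM in control and 45.0 and 16.4 CPM in trained libraries.

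R3hdm1 lies on chromosome 1, from 128103282 to 128237738, and its span holds Mir128-1 (128202361 to 128202430). The microRNA itself was not measured here. The 250 bases before an annotated start near the 5′ end of the gene (chr1:128103056-128103305, plus strand) are shown because R3hdm1 rose in the adult-born neurons outside n03-GC-1 and n07-GC-2, as tested below.
R3hdm1 upstream: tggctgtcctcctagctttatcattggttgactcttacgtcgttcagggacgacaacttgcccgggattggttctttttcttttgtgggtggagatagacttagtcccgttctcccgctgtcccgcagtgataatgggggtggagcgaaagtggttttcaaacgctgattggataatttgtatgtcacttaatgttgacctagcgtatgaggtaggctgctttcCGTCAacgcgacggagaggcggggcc
The match is the TGACG core on the opposite strand, present in 17.8% of all windows, while the full element TGACGTCA, present in 1.55%, is not in this window.

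R3hdm1 was highest in n06-Transition at 1637 ± 612 CPM (SD, n = 6), n15-M/TC-1 at 1445 ± 435 CPM and n07-GC-2 at 1088 ± 312 CPM, with overlapping ranges of all neighbours in the order. Both trained libraries lay above both control libraries in 16 of the 32 other clusters and below in 0. The share above was 9 of 12 in neuronal clusters, against 18.0% of all pairs there, and 7 of 20 in nonneuronal clusters, against 16.9%. In n06-Transition R3hdm1 stood at 1457 and 1561 CPM in control, 1153 and 977 CPM in occluded and 2033 and 2643 CPM in trained libraries. In n12-GC-6 it stood at 713 and 806 CPM in control, 755 and 568 CPM in occluded and 1497 and 1261 CPM in trained libraries. The trained libraries lay above the other 4 in both, whereas in the periglomerular cluster n02-PGC-1, at 151 and 173 CPM in control and 159 and 187 CPM in trained libraries, they overlapped the control libraries. In MyOligo it stood at 121 and 142 CPM in control and 129 and 126 CPM in trained libraries.

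Pgap1 lies on chromosome 1, from 54473000 to 54557684, on the minus strand. Its upstream window (chr1:54557685-54557934) and that of Tnfaip6 are shown for comparison with the other members.
Pgap1 upstream: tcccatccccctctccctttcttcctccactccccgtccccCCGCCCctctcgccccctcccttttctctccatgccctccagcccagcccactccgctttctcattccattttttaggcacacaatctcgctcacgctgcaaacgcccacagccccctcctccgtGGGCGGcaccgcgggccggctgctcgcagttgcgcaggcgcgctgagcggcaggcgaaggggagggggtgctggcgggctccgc
It holds 2 GC boxes, 1 on each strand. Pgap1 was highest in n06-Transition at 161 ± 51.0 CPM (SD, n = 6) and stood at 49.2 CPM or less in every nonneuronal cluster, with OPC the highest of these, and the ranges of all neighbours in the order overlapped. Of the 31 other clusters with 12 or more UMIs, both trained libraries lay above both control libraries in 7 and below in 4, against 17.3% and 17.0% of all pairs; 1 of the 7, n01-OSNs, had under 12 UMIs outside the trained libraries. In neuronal clusters they lay above in 6 of 12 and below in 0, against 18.0% of all pairs above, and in nonneuronal clusters above in 1 of 19, against 16.9%. The count above was 10 without trained replicate 1, against 35.1% of all pairs. It was 16 without trained replicate 2, 12 without control replicate 1 and 15 without control replicate 2. In each of these 1 library fewer has to lie apart, so they cannot be set against the 17.3%. The 6 neuronal clusters among the 7 included n11-GC-5, at 63.3 and 66.2 CPM in control, 67.7 and 64.4 CPM in occluded and 144 and 80.7 CPM in trained libraries. In n12-GC-6 it stood at 58.6 and 47.9 CPM in control, 28.2 and 108 CPM in occluded and 201 and 142 CPM in trained libraries. The 4 clusters in which it was below (Astro2, Mono, MyOligo and OEC2) were nonneuronal, 4 of 19 against 17.4% of all pairs in nonneuronal clusters, and in MyOligo it stood at 33.2 and 40.3 CPM in control and 28.1 and 21.9 CPM in trained libraries.

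Tnfaip6 lies on chromosome 2, from 52038113 to 52056681, with its upstream window at chr2:52037863-52038112 on the plus strand.
Tnfaip6 upstream: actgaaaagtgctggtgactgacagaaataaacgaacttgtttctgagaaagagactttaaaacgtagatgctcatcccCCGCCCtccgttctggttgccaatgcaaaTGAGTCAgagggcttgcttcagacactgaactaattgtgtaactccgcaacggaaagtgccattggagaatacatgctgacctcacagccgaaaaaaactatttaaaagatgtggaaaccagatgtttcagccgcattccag
It holds a GC box and an AP-1 motif, the latter present in 6.75% of all windows, while the Egr motif, present in 4.70%, was in none of the windows printed here.

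The level of Tnfaip6 was highest in MyOligo, the myelinating oligodendrocytes, at 560 ± 67.0 CPM (SD, n = 6), above every library of the next cluster, n08-PGC-3 at 131 ± 53.5 CPM, and n07-GC-2 followed at 71.5 ± 45.0 CPM. Of the 19 other clusters with 12 or more UMIs, both trained libraries lay above both control libraries in 3 (n06-Transition, MyOligo and OEC4) and below in 3 (n04-Immature, n13-AstrocyteLike and n17-M/TC-3), close to the 17.3% and 17.0% over all genes. Of the 13 clusters with 12 or more UMIs outside the trained libraries, 2 were above and 2 below. Of the 3 above, n06-Transition was counted only through the trained libraries, since 17 and 9 of its 34 UMIs lay in them. There it stood at 3.33 and 19.0 CPM in control, 0 and 5.49 CPM in occluded and 37.4 and 29.4 CPM in trained libraries. In MyOligo it stood at 493 and 475 CPM in control, 645 and 545 CPM in occluded and 593 and 606 CPM in trained libraries, so the trained libraries lay within the occluded range. The count of 3 clusters above was 5 with cells of at least 1000 UMIs and also 5 with cells under 20% mitochondrial UMIs. It was 6 without trained replicate 1, 9 without trained replicate 2, 8 without control replicate 1 and 5 without control replicate 2, where 1 library fewer has to lie apart.

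Because oligodendrocytes hold the most Tnfaip6, oligodendrocyte RNA was measured in n07-GC-2. The list of 10 oligodendrocyte genes stood there at 1848 and 1957 CPM in control, 1804 and 2429 CPM in occluded and 2176 and 2093 CPM in trained libraries, with none of the 10 at 0 and 1 of the 10 above in both trained libraries. Against Mbp, which encodes a myelin protein and whose gene also gives transcripts outside myelin, Tnfaip6 had 4.42 and 2.92 UMIs per 100 Mbp UMIs in control, 3.47 and 2.02 in occluded and 7.46 and 8.90 in trained libraries of n07-GC-2. In MyOligo the ratio was 5.11 to 7.39 over the 6 libraries. In n07-GC-2 it thus lay below that range in the control and occluded libraries and above it in both trained libraries, narrowly so in trained replicate 1. The part of oligodendrocyte RNA in the Tnfaip6 difference was not tested.

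To test the genes outside the clusters that chose them, UMIs were summed per library over the 10 other adult-born clusters (granule, periglomerular, immature and transition cells without n03-GC-1 and n07-GC-2) and over all nonneuronal cells, and compared with edgeR's quasi-likelihood test, adjusted by Benjamini-Hochberg over all genes tested. The mix of clusters in these sums differed between libraries. By mean level n06-Transition was the highest of the 10 for Zmym1, Pgap1 and R3hdm1. It gave 345 of 2128 and 388 of 1518 cells in control libraries and 159 of 1384 and 254 of 1978 in occluded libraries. In trained libraries it gave 555 of 2233 and 384 of 1539. A sum does not separate this mix from the level within a cluster. Zmym1 and R3hdm1 rose in the summed counts of the other adult-born neurons of the trained libraries. Zmym1 stood at 33.0 and 26.0 CPM in control, 26.4 and 26.9 CPM in occluded and 111 and 65.4 CPM in trained libraries, a log2 fold change of 1.57 ± 0.20 (SE, adjusted p = 0.000929). R3hdm1 stood at 367 and 427 CPM in control, 325 and 277 CPM in occluded and 627 and 629 CPM in trained libraries, a log2 fold change of 0.66 ± 0.12 (SE, adjusted p = 0.0365). The call of R3hdm1 was lost without control replicate 1 (adjusted p = 0.839) or control replicate 2 (adjusted p = 0.103), with only the 2 groups compared (adjusted p = 0.0679) and with cells of at least 1000 UMIs (adjusted p = 0.0908), whereas Zmym1 kept its call in every fit that left out a library, with an adjusted p of at most 0.0170.

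Dynll1, Pgap1 and Tnfaip6 did not pass in this comparison. Dynll1 stood at 803 and 878 CPM in control, 767 and 951 CPM in occluded and 1409 and 1097 CPM in trained libraries (log2 fold change 0.57 ± 0.14 SE, adjusted p = 0.254), and Pgap1 at 73.0 and 60.9 CPM in control, 58.1 and 68.5 CPM in occluded and 119 and 87.0 CPM in trained libraries (log2 fold change 0.61 ± 0.15 SE, adjusted p = 0.26). For both, the trained libraries lay above the other 4. With the replicate number, and so the sex of the pool, as a block, both passed with an adjusted p of 0.0354. That fit called 17 of 12055 genes higher and 10 lower. Leaving out 1 library at a time gave log2 fold changes of 0.36 to 0.76 for Dynll1 and 0.34 to 0.83 for Pgap1. Tnfaip6 stood at 15.2 and 17.9 CPM in control, 13.6 and 16.3 CPM in occluded and 24.6 and 18.6 CPM in trained libraries (log2 fold change 0.40 ± 0.22 SE, adjusted p = 0.724). Of the 5 genes, 2 were thus called higher, against 0.0498% of the 12055 genes tested, with 0% called lower. DESeq2 also called 2, of 5 genes it called higher and 0 lower.

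In nonneuronal cells none of the 5 passed with edgeR, where 0% of the 14663 genes tested were called higher and 0% lower. An unadjusted p under 0.05 was reached by 2 of the 5, Dynll1 and Zmym1, against 993 of the 14663 genes. DESeq2 called 0 of the 5, while it called 16 of the 14663 genes higher and 5 lower. Dynll1 stood at 476 and 525 CPM in control, 400 and 478 CPM in occluded and 775 and 589 CPM in trained libraries (log2 fold change 0.45 ± 0.14 SE, adjusted p = 0.572), with the trained libraries above the other 4 and a change of 0.23 without trained replicate 1 and 0.64 without trained replicate 2. Zmym1 stood at 5.40 and 7.44 CPM in control, 7.16 and 5.33 CPM in occluded and 12.2 and 9.69 CPM in trained libraries (log2 fold change 0.79 ± 0.24 SE, adjusted p = 0.547), also above the other 4. For the remaining 3 genes the log2 fold change was 0.10 ± 0.10 (SE) for R3hdm1, 0.07 ± 0.16 for Pgap1 and 0.01 ± 0.12 for Tnfaip6.

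**Figure D3:**
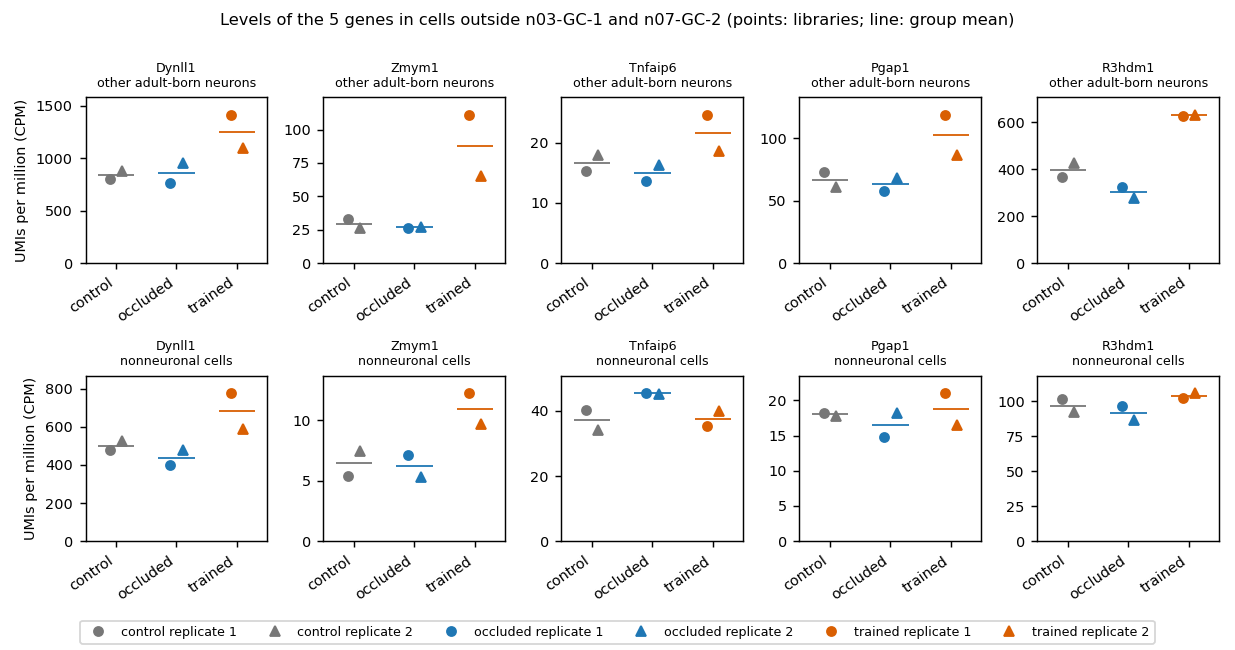
Levels of the 5 genes in the other adult-born neurons (top) and in nonneuronal cells (bottom) in CPM on linear axes from 0, 1 point per library and a line at the mean of each group of 2. In the top row both trained points lie above both control points for all 5 genes, and in the bottom row they do so for Dynll1, Zmym1 and, narrowly, R3hdm1.

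The difference between these cell classes was tested with an interaction of class and group and the library as a block. The trained-minus-control change was larger in the other adult-born neurons by 0.56 ± 0.11 (log2, SE) for R3hdm1 (adjusted p = 0.092), by 0.55 ± 0.16 for Pgap1 (adjusted p = 0.478), by 0.77 ± 0.25 for Zmym1 (adjusted p = 0.694), by 0.42 ± 0.24 for Tnfaip6 (adjusted p = 0.902) and by 0.12 ± 0.10 for Dynll1 (adjusted p = 0.92). None passed in edgeR, where 0% of the 14636 genes tested were called with a larger and 0.0137% with a smaller change in neurons. An unadjusted p under 0.05 was reached by 3 of the 5. How many of all genes reached it was not counted for this fit, so the 3 have no share to be set against. DESeq2 called 0 of the 5 and 0 of all genes. Leaving out 1 library moved the difference of Zmym1 to 0.40 without control replicate 2, 0.49 without trained replicate 1 and 1.20 without control replicate 1, and that of Tnfaip6 to 0.087 without trained replicate 1, 0.15 without control replicate 1 and 0.68 without trained replicate 2, and neither passed in these fits. R3hdm1 passed without a filter on low counts (adjusted p = 0.00503), with cells under 20% mitochondrial UMIs (adjusted p = 0.0256) and without trained replicate 2 (adjusted p = 0.0151). A change in neurons alone was therefore not shown for any of the 5 genes in this fit.

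Single clusters gave 91 testable pairs of gene and other cluster, since the filter on low counts removed Zmym1 from 24, Tnfaip6 from 27, Pgap1 from 16 and R3hdm1 from 2 of the 32 clusters. In 5 of the 91 pairs the gene rose in trained libraries: Zmym1 in n06-Transition (log2 fold change 1.72 ± 0.25 SE, adjusted p = 2.19e-07) and n11-GC-5 (1.83 ± 0.28, adjusted p = 0.00495), Dynll1 in n02-PGC-1 (0.82 ± 0.17, adjusted p = 0.034) and in the ensheathing glia cluster OEC4 (0.64 ± 0.14, adjusted p = 0.0351), and R3hdm1 in n12-GC-6 (0.85 ± 0.19, adjusted p = 0.0429). Over all pairs of gene and other cluster 0.0640% were called higher and 0.0342% lower. The fitted change of Dynll1 was above 0 in 32 of 32 clusters, from 0.20 to 1.10, and that of R3hdm1 in 23 of 30. For Zmym1 it was above 0 in 8 of 8, for Pgap1 in 12 of 16 and for Tnfaip6 in 3 of 5. Over all genes 79088 of 157774 pairs were above 0, and the clusters share their libraries. An unadjusted p under 0.05 was reached by 41 of the 91 pairs with edgeR, against 9025 of the 157774. The number of called pairs depended on single libraries: it was 0 without trained replicate 1 or control replicate 2, 2 without control replicate 1, 8 without occluded replicate 2, 10 without occluded replicate 1 and 14 without trained replicate 2. It was 8 with the replicate number as a block, and DESeq2 called 0 of these pairs, of 16 pairs it called higher and 7 lower over all genes.

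**Figure D4:**
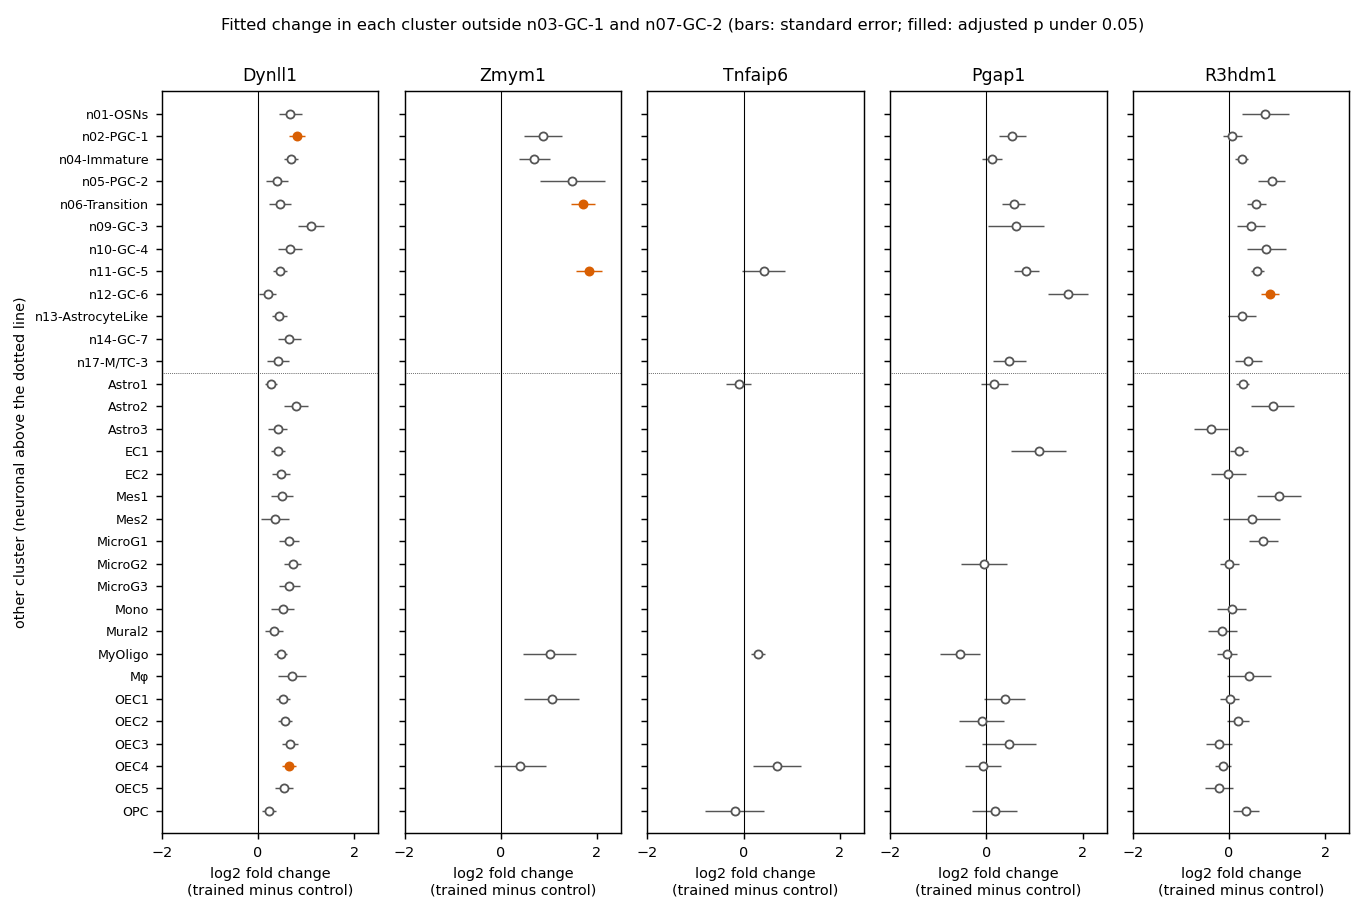
Fitted log2 fold change (trained minus control; bars, standard error) of each gene in each other cluster that passed the filter on low counts, neuronal clusters above the dotted line and nonneuronal clusters below; filled orange points have an adjusted p under 0.05. Dynll1 lies right of 0 in 32 of 32 clusters, Zmym1 has its 2 filled points in n06-Transition and n11-GC-5, and Tnfaip6 could be tested in 5 clusters.

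Naris occlusion, which lowers odor input, was compared with the same control libraries, so the contrasts share their controls. None of the 5 genes was called with edgeR in the other adult-born neurons (0.0249% of all genes higher, 0.124% lower) or in nonneuronal cells (0% higher, 0% lower). An unadjusted p under 0.05 was reached by 1 of 5 in each class, and how many of all genes reached it was not counted. DESeq2 called 0 of the 5 in both. Over all genes it called 0 higher and 6 lower in the neurons, and 0 higher and 2 lower in nonneuronal cells. The smallest edgeR p-value of the 5 genes in these 2 classes was that of R3hdm1 in the other adult-born neurons. There R3hdm1 was lower in both occluded than in both control libraries, with a log2 fold change of -0.42 ± 0.12 (SE, adjusted p = 0.284). Of the 91 pairs of gene and cluster 0 were called with edgeR (0.0235% of all pairs higher, 0.0412% lower). Of these 91, 7 had an unadjusted p under 0.05, against 7519 of 157774 pairs over all genes, and DESeq2 called 0. Both occluded libraries lay above both control libraries in 2 of 32 clusters for Dynll1, 1 of 20 for Zmym1, 3 of 19 for Tnfaip6, 4 of 31 for Pgap1 and 1 of 32 for R3hdm1, against 17.8% of all pairs. They lay below in 8, 1, 4, 6 and 7 of these clusters for Dynll1, Zmym1, Tnfaip6, Pgap1 and R3hdm1, against 47746 of all 298347 pairs.

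No close relative of the 5 genes passed the test. Dynll2, which encodes the other LC8 light chain, stood at 237 and 242 CPM in control and 251 and 233 CPM in trained libraries of the other adult-born neurons (log2 fold change 0.01 ± 0.11 SE, adjusted p = 0.991). In the same cells the log2 fold change was 0.34 ± 0.14 (SE, adjusted p = 0.586) for Zmym2, which encodes a partner of the LSD1 and CoREST complex, and between -0.07 and 0.25 for Zmym3, Zmym4, Zmym5 and Zmym6. R3hdm2 had 0.15 ± 0.13 (adjusted p = 0.85), R3hdm4 had -0.03 ± 0.11 (adjusted p = 0.974), Arpp21, a paralog that hosts the other copy of the microRNA, had 0.23 ± 0.12 (adjusted p = 0.697), Pgap2 had 0.07 ± 0.25 (adjusted p = 0.975) and Pgap3 had 0.78 ± 0.55 (adjusted p = 0.8).

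The wider pathways gave no call either. In the other adult-born neurons edgeR called 0 of 28 genes of dynein and dynactin (5 with an unadjusted p under 0.05; median log2 fold change -0.01), 0 of 13 MYM-type and CoREST genes (2; -0.02), 0 of 14 hyaluronan genes (2; -0.21), 0 of 27 genes of GPI anchor synthesis (2; -0.06) and 0 of 8 R3H genes (0; 0.07), where the median over all genes was 0.00 and 903 of 12055 had an unadjusted p under 0.05. In nonneuronal cells the counts were 0 of 29 (3), 0 of 13 (1), 0 of 21 (3), 0 of 28 (0) and 0 of 8 (1), where 993 of all 14663 genes had an unadjusted p under 0.05. DESeq2 called none of these genes in either class.

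By their mean levels over the 38 clusters of the whole bulb, on a log2(CPM + 1) scale and among 14253 genes, Zmym1 was most like R3hdm1 (Pearson r = 0.92), Ube3a (r = 0.92) and Gm16586 (r = 0.90). R3hdm1 was most like Psme4 (r = 0.95), Ice1 (r = 0.94) and Dot1l (r = 0.93), and Dgcr8 and Nbea (r = 0.89 each) were among the 3 genes most like Pgap1. Dynll1 was most like Cdv3 (r = 0.82), Cxx1b (r = 0.82) and Ppp2cb (r = 0.80), and Tnfaip6 was most like Omg (r = 0.77), Tyro3 (r = 0.75) and Gprc5b (r = 0.73). The clusters share libraries and differ in depth, so these values are descriptions.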

How the data were processed

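Olfactory bulb cells of 6 libraries (control, occluded and trained, 2 each) were analysed from the count table the authors deposited, which holds UMI counts per gene and cell, and from the deposited cell annotation with library, cluster names and the mitochondrial share of each cell as a fraction. The submitters' processing notes name Cell Ranger 2.0.0, Seurat 2.2.1 and mm10; the study's methods state at least 200 genes per cell and removal of doublets, and no further doublet caller was run. The deposited log-scaled expression table was not used.

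Counts were summed per library and cluster. Clusters with at least 20 cells in every library were tested, and the 1123 barcodes without a cluster name and 755 cells called neurons in the whole-bulb annotation but unnamed in the neuron annotation were left out; 6 clusters were too small. edgeR 4.0.16 (R 4.3.3; TMM, filterByExpr, quasi-likelihood test, group as the only term, all 6 libraries, Benjamini-Hochberg over all genes, threshold 0.05) gave the tests, with limma 3.58.1 and DESeq2 1.42.0 among the alternatives. CPM are counts scaled to a common total of UMIs in the cells summed. A count of clusters above or below uses genes with at least 12 UMIs over the 6 libraries. Likeness used genes with at least 10 CPM in 1 cluster and a pseudocount of 1. All 5 genes and the 4 upstream windows printed were matched by symbol in RefSeq (GRCm38.p6); Zmym1 had none in the table used. Alternatives were other normalizations, no filter, DESeq2, limma at fixed cluster weights, the replicate block, deeper or less mitochondrial cells, and leaving out each library; those for counts of clusters above were chosen after seeing the data. Same-numbered libraries deviated together (correlation 0.18 to 0.24 in the other adult-born neurons, 0.238 to 0.365 in nonneuronal cells), so the block is given where it changed a call. Barcode sequences in more than 1 library numbered 1533. Scripts were tested on simulated data. The 5 genes and the gene lists were chosen with earlier results of these data known. By rule the text names the 5 genes, their closest paralogs, pathway genes that passed the test, of which there were 0, and for each gene the 3 most like it, of which 1 is not reported here; other genes called are named in the closing section, after their values were seen. The labels do not say that the 2 libraries of a group came from separate preparations, so p-values measure the spread between libraries, and an exact permutation test of 2 against 2 could not go below p = 0.333.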

Additional observations from a re-analysis of the deposited data

Results flagged for a closer look

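Tnfaip6 and Pgap1 stood apart in opposite directions in different clusters: both trained libraries lay above both control libraries in 3 clusters and below in 3 for Tnfaip6, and above in 7 and below in 4 for Pgap1. Of 19 clusters for Tnfaip6 and 31 for Pgap1, the pooled counts are near the 17.3% above and 17.0% below over all pairs of gene and cluster. For Pgap1 they were 6 above and 0 below of 12 neuronal clusters and 1 above and 4 below of 19 nonneuronal clusters. The difference between single clusters was not tested. Between the other adult-born neurons and nonneuronal cells, edgeR's interaction test called neither gene (adjusted p = 0.478 for Pgap1 and 0.902 for Tnfaip6).

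The other values come from the 6 clusters with under 20 cells in a library, which entered no test. Only pairs of gene and cluster with both trained libraries above both control libraries were picked out. Pairs that overlapped or lay below were not counted, and no share over all genes was taken in these clusters. The picked values are descriptions and cannot show a rise. Dynll1 averaged 718 CPM in the trained libraries against 476 CPM in the control libraries of n08-PGC-3 and 356 against 288 CPM in n15-M/TC-1. R3hdm1 averaged 1925 against 1156 CPM in n15-M/TC-1, 617 against 203 CPM in n16-M/TC-2 and 335 against 74.8 CPM in n18-EPL-IN; trained replicate 2 held 4 of its UMIs in n16-M/TC-2, and the control libraries 5 and 0 in n18-EPL-IN. Tnfaip6 averaged 114 against 89.4 CPM in n08-PGC-3, below the occluded libraries at 230 and 147 CPM. Pgap1 averaged 131 against 34.5 CPM in n16-M/TC-2, where the trained libraries held 6 and 1 UMIs, the latter in 8 cells, and the control libraries 2 and 1. Zmym1 averaged 77.7 CPM in the trained libraries of Mural1, where it had 15 UMIs in all and none in the control libraries. Dynll1 went the other way in n18-EPL-IN, with 359 and 723 CPM in control and 255 and 292 CPM in trained libraries.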

How the results depend on the processing

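With 2 libraries a group, single libraries decided several calls. In the other adult-born neurons, the trained-minus-control log2 fold change of Dynll1 was 0.58 without a filter on low counts and 0.58 with the replicate number as a block. That of Pgap1 was 0.62 and 0.61, and both passed in these fits. Over all genes, 25 of 17666 were called higher and 22 lower without the filter, and 17 of 12055 higher and 10 lower with the block. In the same cells the log2 fold change of R3hdm1 was 0.66 with only the 2 groups compared and 0.59 with cells of at least 1000 UMIs, and no longer passed. Its difference between cell classes was 0.56 without a filter and 0.58 with cells under 20% mitochondrial UMIs, and passed. The called pairs of gene and cluster numbered 10 without a filter, 8 with the replicate block and 0 with DESeq2. The block changed no other call. The Tnfaip6 count of 3 clusters was 5 with deeper cells and 5 with less mitochondrial cells.

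Leaving out 1 library at a time gave 0.36 to 0.76 for Dynll1, 0.34 to 0.83 for Pgap1, 0.56 to 0.76 for R3hdm1 and 0.15 to 0.60 for Tnfaip6 in the other adult-born neurons, 0.23 to 0.64 for Dynll1 and 0.034 to 0.17 for R3hdm1 in nonneuronal cells, class differences of 0.38 to 0.74 for R3hdm1, 0.40 to 1.20 for Zmym1 and 0.087 to 0.68 for Tnfaip6, 0 to 14 called pairs, and 5 to 9 clusters above for Tnfaip6 and 10 to 16 for Pgap1. Some changes that were not called crossed 0. In trained nonneuronal cells these ranged from -0.11 to 0.14 for Tnfaip6 and from -0.13 to 0.23 for Pgap1. In occluded other adult-born neurons they ranged from -0.17 to 0.17 for Dynll1, -0.34 to 0.015 for Zmym1 and -0.26 to 0.038 for Pgap1, and in occluded nonneuronal cells from -0.27 to 0.20 for Zmym1 and -0.28 to 0.0089 for Pgap1.

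Other uncalled changes that turned sign were, with cells of at least 1000 UMIs, Dynll1 at -0.024 and Tnfaip6 at 0.077 in occluded other adult-born neurons, Pgap1 at -0.030 in trained and Zmym1 at 0.013 in occluded nonneuronal cells. With cells under 20% mitochondrial UMIs they were Dynll1 at -0.012 in occluded other adult-born neurons and Pgap1 at -0.0051 in trained nonneuronal cells. At fixed cluster weights they were Dynll1 at -0.080 and Zmym1 at 0.031 in occluded other adult-born neurons and Zmym1 at 0.014 in occluded nonneuronal cells. Without MyOligo the occluded nonneuronal change of Tnfaip6 was -0.20. The cause of these moves was not tested.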

Other observations

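Beside Zmym1 and R3hdm1, 4 genes were called higher in the other adult-born neurons of the trained libraries by edgeR's quasi-likelihood test; they are named after their values were seen. Homer1, a scaffold protein of the postsynaptic density, had a log2 fold change of 0.94 ± 0.14 (SE, adjusted p = 0.00733), and Grasp, a scaffold protein that binds group I metabotropic glutamate receptors, had 0.95 ± 0.16 (adjusted p = 0.0279). Noct, a circadian phosphatase, had 1.26 ± 0.16 (adjusted p = 0.000929), and Xbp1, a transcription factor of the unfolded protein response, had 0.81 ± 0.14 (adjusted p = 0.0279). Across single clusters, the genes called higher most often were Hspa8, a constitutive heat shock chaperone, in 9 of 32 clusters tested, Tsc22d3, a glucocorticoid-induced gene, in 6 of 24, and the metallothionein Mt1 in 4 of 32.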
